A study of Homo sapiens with 6 samples.

Results

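Long intergenic noncoding RNA genes were described in ONS-76 medulloblastoma cells after knockdown of KDM1A (also called LSD1), a histone demethylase. The set held each probe set that named a single gene with a symbol starting in LINC0 and had a mean log2 value of 5 or more in the siKDM1A or the control group. This gave 251 probe sets of 212 genes, out of 1084 probe sets of 840 LINC0 genes on the array, and 833 LINC0 probe sets stayed below the cut. Another 47 probe sets named a LINC0 gene together with other genes and were left out.

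The RNA of ONS-76, a cell line grown from a human medulloblastoma, was measured on Affymetrix U133 Plus 2.0 arrays, which read each transcript with probe sets of short oligonucleotides. The siKDM1A group was ONS-76 cells transfected with siRNA against KDM1A, and the control group was ONS-76 cells given transfection reagent alone, with 3 arrays per group from independent transfections and no further genetic change stated for either. The labels call the siRNA target KDM5A/LSD1 and give 48 h between knockdown and harvest, whereas the methods of the study name KDM1A and a later time. Since the control received no siRNA, loss of KDM1A and delivery of an siRNA cannot be told apart.

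Long intergenic noncoding RNAs (lincRNAs) are transcribed from their own genes between protein-coding genes, are usually spliced and polyadenylated like mRNAs, and have no long open reading frame. Most are weakly expressed and restricted to few tissues, and the function of the majority is unknown. Some act in the nucleus on chromatin or on neighbouring genes, and others act in the cytoplasm on mRNAs, microRNAs or proteins. KDM1A removes methyl groups from lysine 4 of histone H3 at promoters and enhancers, and it works in corepressor complexes, one of which has been described to bind the lincRNA HOTAIR.

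KDM1A mRNA had a mean of 6.30 ± 0.05 in siKDM1A cells and 9.52 ± 0.04 in control cells (SD, n = 3 each; log2 difference -3.22, adjusted p = 7.1e-07), whereas KDM5A had 7.43 and 7.70 (adjusted p = 0.14). Adjusted p-values come from limma, corrected by the Benjamini-Hochberg procedure for 54613 probe sets, and a probe set passed the test when its value was under 0.05. The median of all values was between 5.11 and 5.16 on the siKDM1A arrays and between 5.09 and 5.12 on the control arrays. The lowest correlation between 2 arrays was 0.991. Differences between 3' and 5' control probe sets for ACTB were 0.72 to 1.41 in siKDM1A and 0.86 to 1.43 in control samples. Among 10 neural and medulloblastoma markers, MAP2 was higher (log2 difference 1.12, adjusted p = 0.0003) and SOX2 lower (-0.43, adjusted p = 0.048). MAP2 passed on 1 of 2 probe sets and SOX2 on 1 of 4. VIM and TUBB3 were bright in both groups, and OTX2, ATOH1, DCX and SYP lay under 5 in both. The mean of the 10 markers was 6.83 to 6.94 on siKDM1A arrays and 6.76 to 6.86 on control arrays. Of 7 markers of other cell types 6 were measured, with means of 5.81 to 5.95 on siKDM1A and 5.75 to 5.83 on control arrays. PECAM1, an endothelial marker, was higher by 0.35 (adjusted p = 0.035) and passed on 1 of 5 probe sets. VWF, also endothelial, differed by 0.08 (adjusted p = 0.71). PTPRC and EPCAM lay under 5. The stromal markers COL1A1 (7.52 in siKDM1A, 7.37 in control) and ACTA2 (8.61 and 8.81) were bright in both groups. Neither passed on its brightest probe set, although 2 of 5 COL1A1 probe sets passed. The part of these shifts in the lincRNA values was not tested.

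Few lincRNA probe sets differed between siKDM1A and control cells. Of the 251 probe sets 4 were higher in siKDM1A cells, 10 were lower and 237 did not pass the test. The probe sets that passed made up 5.58% (1.59% higher, 3.98% lower), against 5.91% of all probe sets on the array (2.18% higher and 3.73% lower) and 10.1% of probe sets of any gene at the same level cut (3.55% higher, 6.57% lower). The cut admits a probe set that is high in only 1 group, so the 224 probe sets that reached 5 in both groups were also counted. Of these 4 were higher and 7 lower, or 4.91%, against 9.79% of probe sets of any gene that reached 5 in both groups (3.34% higher, 6.45% lower). The counts fell to 3 higher and 2 lower without control c, 4 and 3 without control a, 3 and 5 without control b, and 4 and 6 without siKDM1A b or siKDM1A c. The share of all 251 was close to that of all probe sets on the array and below that of probe sets at the cut. LINC00326 and LINC00973 are among the 4, and since the choice of genes named them as risen, their values below are a description without a test.

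The 3 siKDM1A values lay outside the range of the 3 control values for 68 of the 251 probe sets (27.1%), 37 of them above and 31 below. This compares with 24.5% of all probe sets (11.1% above, 13.4% below) and 34.3% of those at the level cut (13.1% above, 21.2% below). The median log2 difference was 0.049 (quartiles -0.067 and 0.149), compared with 0.014 over all probe sets and -0.014 over those at the level cut. Differences stayed within 0.5 for 238 probe sets (94.8%), against 95.6% of all probe sets and 92.7% of those at the level cut. They stayed within 0.2 for 182 (72.5%), against 73.7% and 64.2%. The standard error of a difference had a median of 0.10. Before adjustment, 25 lincRNA probe sets were higher and 22 lower at p under 0.05, which is 18.7% of them against 18.8% of all probe sets.

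**Figure D1:**
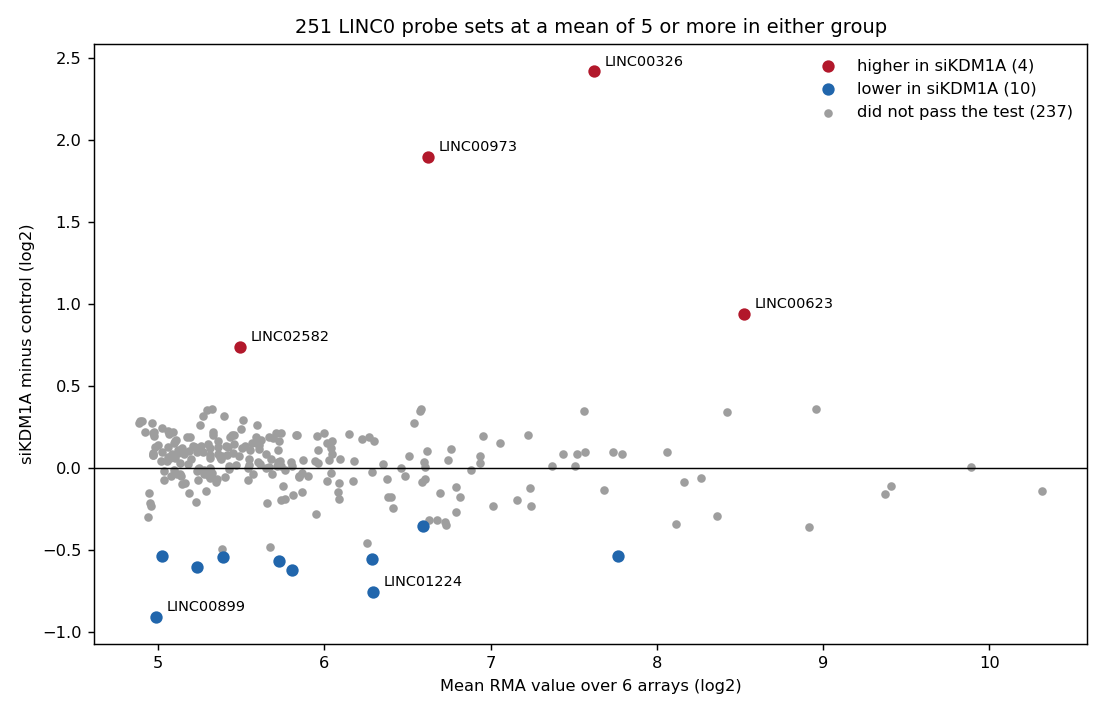
Each point is 1 of 251 LINC0 probe sets, with its mean over 6 arrays (log2) on the x axis and the siKDM1A minus control difference (log2) on the y axis; colours mark the 4 that were higher, the 10 that were lower and the 237 that did not pass the test. LINC00326 (2.42) and LINC00973 (1.90) stand far above the other probe sets, and LINC00899 (-0.90) is the lowest.

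Probe sets that passed were found in each range of levels. Their share was 4% at a mean from 5 to under 6, 7.55% from 6 to under 7 and 10% at 7 or more. It was 5.56% under 5, and these shares rest on few calls. The share of all probe sets in each range was not counted. Of 150 probe sets with a mean over the 6 arrays from 5 to under 6, 1 was higher and 5 were lower. Of 53 from 6 to under 7, 1 was higher and 3 were lower, and of 30 at 7 or more, 2 were higher and 1 was lower. The remaining 18 had a mean under 5 and reached the cut through a single group, and 1 of them was lower. At the cut itself, LINC02606, LINC03125 and LINC01563 were just inside, with means of 5.01 in siKDM1A cells against 4.93, 4.93 and 4.92 in control cells. Just outside were LINC00671 (4.998 in siKDM1A, 4.87 in control), LINC01731 (4.87 and 4.995) and LINC01365 (4.993 and 4.88).

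LINC00326, on chromosome 6, had the largest difference of the 251 probe sets. Its only probe set read 8.96, 8.92 and 8.61 in siKDM1A cells and 6.26, 6.44 and 6.53 in control cells. All 3 siKDM1A values lay more than 2 log2 units above every control value. The log2 difference was 2.42 (SE 0.12), or 5.35-fold, and it stayed between 2.35 and 2.53 under the 12 alternative settings.

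LINC00973, on chromosome 3, came next. Its only probe set read 7.41, 7.64 and 7.65 in siKDM1A cells and 5.72, 5.75 and 5.55 in control cells, without overlap. This is a log2 difference of 1.90 (SE 0.10), or 3.73-fold, with a range of 1.84 to 1.98 over the same settings. LINC00973 has been described in kidney cancer cells as a positive regulator of the immune checkpoint gene SIGLEC15.

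RefSeq (GRCh38.p14) lists 4 start sites for LINC00973, and their promoters, from 250 bases before to 50 bases after each start, are shown. Of the 14 LINC0 genes that passed at the cut, no other with a difference above 1 on the log2 scale had a promoter entry. The array annotation and RefSeq give this gene different Entrez IDs, so it was matched by its symbol. Capitals mark matches on either strand to the letters of 5 motifs. These were AP-1 (TGANTCA), bound by Fos and Jun dimers, and the cyclic AMP response element (TGACGTCA), bound by CREB. The others were the GC box (GGGCGG), bound by Sp1, the TATA box (TATAAA) of core promoters, and the E-box (CACGTG), bound by MYC and its relatives.
LINC00973, chr3:98914316-98914615 (+ strand): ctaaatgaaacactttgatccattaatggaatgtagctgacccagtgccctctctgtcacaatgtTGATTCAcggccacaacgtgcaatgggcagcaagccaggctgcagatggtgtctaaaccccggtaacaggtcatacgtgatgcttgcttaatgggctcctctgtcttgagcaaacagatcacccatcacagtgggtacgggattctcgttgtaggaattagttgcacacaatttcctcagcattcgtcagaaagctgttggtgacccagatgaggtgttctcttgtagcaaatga
LINC00973, chr3:98961677-98961976 (+ strand): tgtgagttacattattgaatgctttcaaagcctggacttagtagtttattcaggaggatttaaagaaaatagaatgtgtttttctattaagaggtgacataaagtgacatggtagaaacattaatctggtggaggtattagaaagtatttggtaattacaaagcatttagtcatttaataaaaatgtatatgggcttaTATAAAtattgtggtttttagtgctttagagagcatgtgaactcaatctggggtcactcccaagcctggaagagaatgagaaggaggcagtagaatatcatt
LINC00973, chr3:98966834-98967133 (+ strand): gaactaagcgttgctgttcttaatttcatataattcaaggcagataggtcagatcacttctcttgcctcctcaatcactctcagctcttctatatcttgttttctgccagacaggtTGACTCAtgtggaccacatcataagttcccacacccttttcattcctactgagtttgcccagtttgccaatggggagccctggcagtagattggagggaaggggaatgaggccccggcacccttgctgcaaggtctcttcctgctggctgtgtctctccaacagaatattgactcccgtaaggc
LINC00973, chr3:98980805-98981104 (+ strand): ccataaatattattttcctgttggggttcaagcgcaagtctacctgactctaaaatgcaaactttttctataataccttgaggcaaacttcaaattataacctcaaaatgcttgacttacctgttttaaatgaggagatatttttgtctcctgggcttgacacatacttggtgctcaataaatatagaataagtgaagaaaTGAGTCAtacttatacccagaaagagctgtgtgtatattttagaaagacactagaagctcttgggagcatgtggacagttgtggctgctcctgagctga
An AP-1 match began 185, 134 and 49 bases before the start in the promoters beginning at 98914316, 98966834 and 98980805, and the one beginning at 98961677 held a TATA box match 52 bases before the start. AP-1 letters were present in 7.71% of 35116 RefSeq promoters and in 11.7% of 180 promoters of the lincRNA genes described here, and TATA box letters in 11.5% and 11.7%. These matches are letters only, and no binding was measured.

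LINC00623, on chromosome 1, differed with little spread within the groups. Its probe set read 8.90, 9.04 and 9.04 in siKDM1A cells against 8.04, 8.05 and 8.05 in control cells. The control values were nearly identical and the siKDM1A values all lay higher. The log2 difference was 0.94 (SE 0.08; 1.92-fold; adjusted p = 0.0004), and it passed under each of the 12 alternatives, the methods' one-way analysis of variance included (adjusted p = 0.026). The name of this probe set ends in _x_at, which marks probes that can also bind other transcripts, and the LINC00623 region of chromosome 1 has near-identical copies, so the source of the signal among them is uncertain.

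LINC02582, on chromosome 18, was higher at a low level. Values were 5.65, 6.16 and 5.76 in siKDM1A cells and 5.28, 5.18 and 4.89 in control cells. The groups did not overlap, although siKDM1A b lay above the other siKDM1A arrays. The log2 difference was 0.74 (SE 0.15; adjusted p = 0.021). It no longer passed without control b (adjusted p = 0.058), without control c (0.094) or by analysis of variance (0.20).

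**Figure D2:**
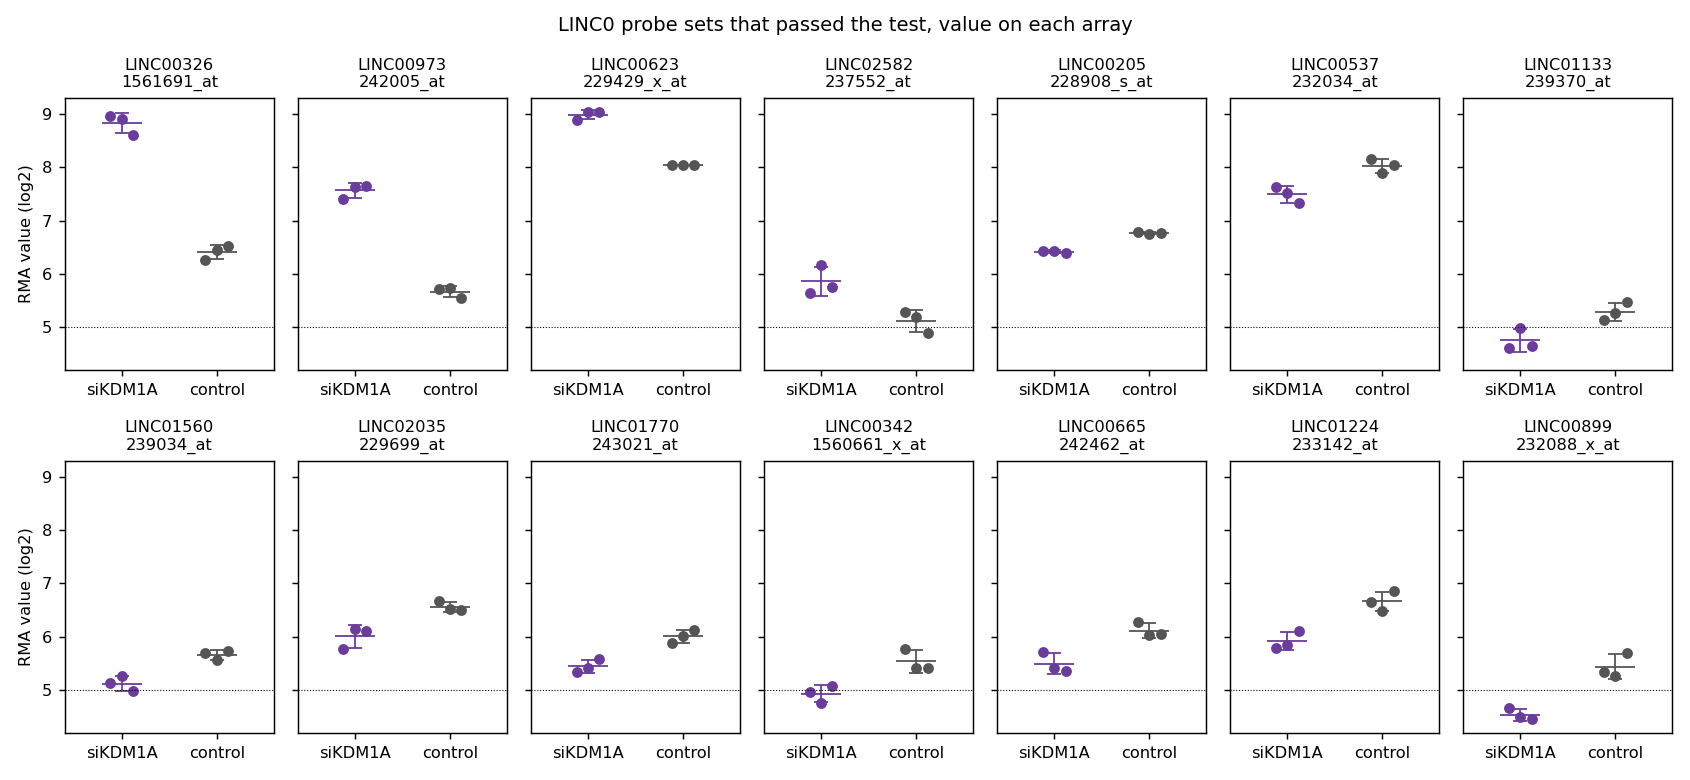
RMA values (log2, y axis) of the 14 LINC0 probe sets that passed the test, siKDM1A left and control right in each panel; points are arrays, the wide line is the mean, the capped bar 1 SD (n = 3), and the dotted line the level cut of 5. The groups do not overlap in any panel, as chosen by the test, and 3 probe sets have their siKDM1A mean under the cut.

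Among the lower genes, LINC01224 on chromosome 19 had the largest difference of those that reached the cut in both groups. Values were 5.79, 5.84 and 6.11 in siKDM1A cells and 6.65, 6.49 and 6.85 in control cells. The lowest control value lay above the highest siKDM1A value. The log2 difference was -0.75 (SE 0.12; adjusted p = 0.0077), and the call was lost only by analysis of variance (0.12).

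LINC00665, also on chromosome 19, which in breast cancer cells encodes a micropeptide, had 5.72, 5.42 and 5.35 in siKDM1A cells and 6.28, 6.03 and 6.05 in control cells for 1 probe set. The difference was -0.62 (SE 0.12; adjusted p = 0.018). Its other bright probe set did not separate the groups, at 5.40, 5.69 and 6.10 in siKDM1A and 5.90, 5.89 and 5.88 in control cells (difference -0.16, SE 0.15, adjusted p = 0.64). The first probe set no longer passed without control a, control c, siKDM1A b or siKDM1A c (adjusted p = 0.052 to 0.066) or by analysis of variance (0.16).

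LINC01770 on chromosome 1 gave opposite directions for its 2 probe sets. One probe set read 5.34, 5.41 and 5.58 in siKDM1A cells and 5.88, 6.02 and 6.12 in control cells (difference -0.56, SE 0.10, adjusted p = 0.012). The other, whose name ends in _x_at, read 5.92, 5.94 and 6.18 in siKDM1A cells and 5.92, 5.78 and 6.01 in control cells (difference 0.11, SE 0.10, adjusted p = 0.64). The groups overlapped on the second probe set and not on the first. The call of the first was lost without control b (0.053), without control c (0.071) and by analysis of variance (0.11).

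LINC02035 on chromosome 3 had 5.76, 6.15 and 6.11 in siKDM1A cells and 6.66, 6.52 and 6.49 in control cells. The difference was -0.55 (SE 0.12; adjusted p = 0.026). It did not pass without siKDM1A a or without any 1 of the control arrays (adjusted p = 0.054 to 0.094), nor by analysis of variance (0.18).

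LINC01560, on the X chromosome, had 5.13, 5.26 and 4.97 in siKDM1A cells and 5.69, 5.56 and 5.74 in control cells. The difference was -0.54 (SE 0.10; adjusted p = 0.015), and the groups did not overlap. Without control a the adjusted p was 0.057, without control c it was 0.081, and by analysis of variance 0.11.

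LINC00537, on chromosome 9, differed on 1 of 3 probe sets. That probe set read 7.64, 7.52 and 7.33 in siKDM1A cells and 8.16, 7.89 and 8.04 in control cells (difference -0.53, SE 0.11, adjusted p = 0.023). The other probe sets did not separate the groups, with differences of -0.01 (SE 0.08) and 0.04 (SE 0.10). The call was lost without control a, control c, siKDM1A b or siKDM1A c (adjusted p = 0.056 to 0.098) and by analysis of variance (0.16).

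LINC00205, on chromosome 21, is measured by 7 probe sets, 5 of them at the cut. The probe set that passed had narrow groups, 6.43, 6.43 and 6.39 in siKDM1A cells against 6.80, 6.75 and 6.76 in control cells (difference -0.35, SE 0.08, adjusted p = 0.031). All 5 probe sets at the cut had negative differences, with -0.33 (SE 0.09, adjusted p = 0.069) and -0.23 (SE 0.08, adjusted p = 0.17) on the next 2. The most negative of them (-0.46, SE 0.26) rested on siKDM1A c, which read 5.32 beside 6.46 and 6.30 on the other siKDM1A arrays and 6.35, 6.43 and 6.66 in control cells. The call of the first was lost without any 1 of the 6 arrays (adjusted p = 0.067 to 0.13) and with cyclic loess (0.051).

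The other 3 lower probe sets reached the cut through control cells alone and are given without a test. LINC00899 on chromosome 22 read 4.66, 4.49 and 4.46 in siKDM1A cells and 5.35, 5.27 and 5.70 in control cells, a difference of -0.90 (SE 0.12). Its second probe set differed by -0.21 (SE 0.10). Like that of LINC00623, the names of the first LINC00899 and LINC00342 probe sets end in _x_at. LINC00342 on chromosome 2 read 4.97, 4.76 and 5.07 in siKDM1A cells and 5.78, 5.42 and 5.41 in control cells (difference -0.60, SE 0.13), and its other probe set that reached the cut, in both groups, had a difference of -0.48 (SE 0.17, adjusted p = 0.15). LINC01133 on chromosome 1, described to bind the splicing factor SRSF6 in colorectal cancer cells, read 4.62, 4.99 and 4.65 in siKDM1A cells and 5.14, 5.27 and 5.47 in control cells (difference -0.54, SE 0.13). Its dimmer probe set differed by 0.03 (SE 0.11).

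**Figure D3:**
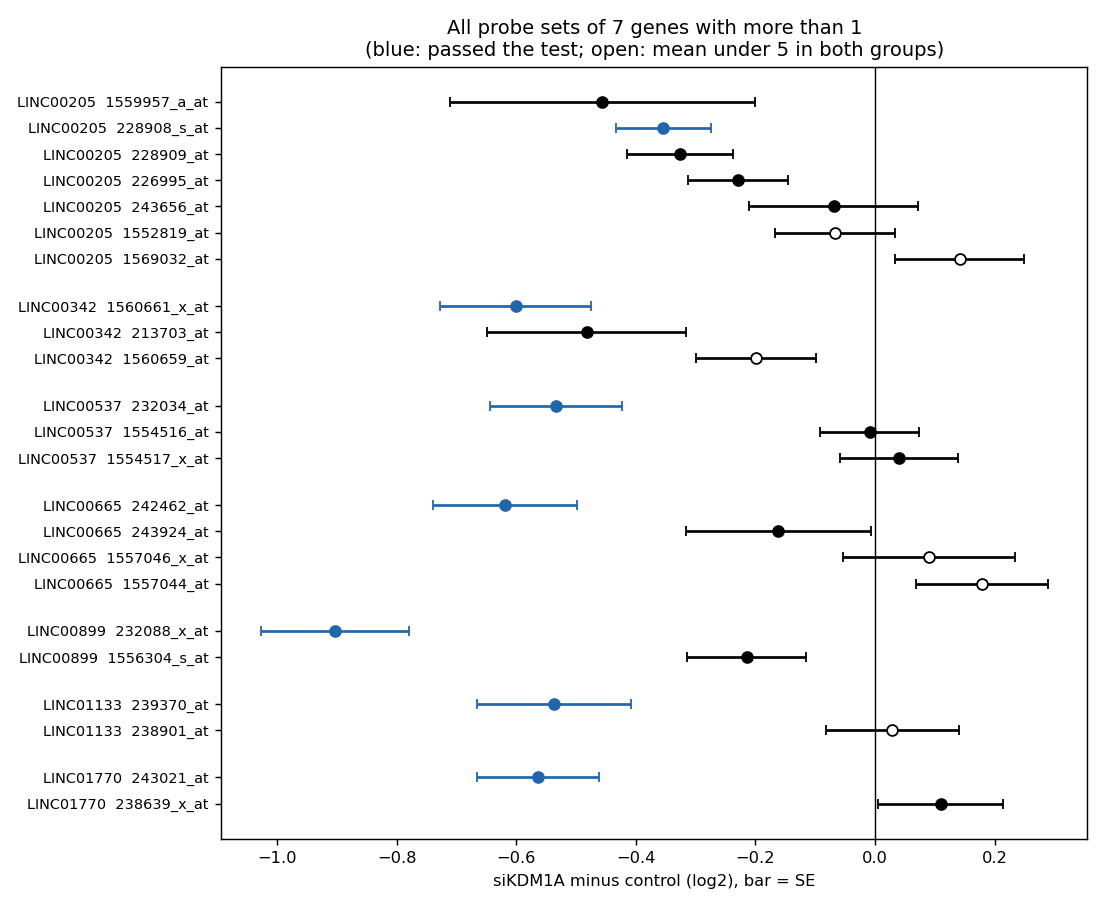
Log2 difference (siKDM1A minus control, x axis) with its SE for every probe set of the 7 genes that passed and have more than 1 probe set; blue points passed the test and open points had a mean under 5 in both groups. For LINC00537 and LINC01770 the probe set that passed is far from the others of its gene, and for LINC00205 and LINC00342 all probe sets at the cut lie below 0.

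Promoters of LINC00899, LINC00205 and LINC01224 are shown as the lower genes with the largest difference, the most probe sets and the largest difference in both groups. The same letters are in capitals.
LINC00899, chr22:46044819-46045118 (- strand): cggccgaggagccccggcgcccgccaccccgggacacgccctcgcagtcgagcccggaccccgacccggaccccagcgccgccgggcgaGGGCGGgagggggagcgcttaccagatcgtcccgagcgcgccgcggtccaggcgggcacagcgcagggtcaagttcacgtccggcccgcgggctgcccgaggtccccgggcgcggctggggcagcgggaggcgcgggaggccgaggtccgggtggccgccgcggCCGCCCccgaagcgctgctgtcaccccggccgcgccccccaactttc
LINC00205, chr21:45287802-45288101 (+ strand): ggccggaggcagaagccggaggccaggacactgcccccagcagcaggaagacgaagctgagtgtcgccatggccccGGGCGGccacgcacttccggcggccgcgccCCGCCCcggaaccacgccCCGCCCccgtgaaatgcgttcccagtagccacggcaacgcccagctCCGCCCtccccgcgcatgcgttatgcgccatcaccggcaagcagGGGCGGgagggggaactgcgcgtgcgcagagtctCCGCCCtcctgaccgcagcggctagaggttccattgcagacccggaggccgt
LINC01224, chr19:23416025-23416324 (- strand): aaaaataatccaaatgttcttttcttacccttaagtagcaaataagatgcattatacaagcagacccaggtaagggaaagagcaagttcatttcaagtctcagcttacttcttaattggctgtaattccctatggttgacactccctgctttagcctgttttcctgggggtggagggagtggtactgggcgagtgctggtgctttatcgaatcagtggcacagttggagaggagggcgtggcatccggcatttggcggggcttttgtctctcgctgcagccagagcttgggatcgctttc
The LINC00205 promoter held 6 GC box matches and that of LINC00899 held 2, and the LINC01224 promoter held none of the 5 motifs. GC box letters were found in 45.0% of all RefSeq promoters and in 38.3% of the lincRNA promoters. The G and C content was 81.0% for LINC00899, 72.3% for LINC00205 and 48.0% for LINC01224, against a median of 55.3% for the lincRNA promoters and 58.7% for all. Of the 14 genes that passed, 10 had a promoter entry.

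Probe sets of a gene did not always differ in the same direction. Of the 32 genes with more than 1 probe set at the cut, 18 had differences of a single sign and 14 of both signs. The span from lowest to highest difference within a gene had a median of 0.16 and reached 0.69 for LINC00899. LINC00467, which N-Myc represses in neuroblastoma cells, agreed closely between its probe sets, with differences of -0.34 (SE 0.10, adjusted p = 0.084) and -0.29 (SE 0.10, adjusted p = 0.16). LINC00963, described in castration-resistant prostate cancer, had 0.36 (SE 0.10, adjusted p = 0.067) and 0.21 (SE 0.09, adjusted p = 0.24). For LINC00662 the signs differed, at 0.36 and -0.08.

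Several lincRNAs with high values did not pass the test. LINC00261, a lncRNA of endoderm development beside FOXA2, read 10.28, 10.20 and 10.26 in siKDM1A cells and 10.32, 10.37 and 10.47 in control cells (difference -0.14, SE 0.08, adjusted p = 0.43). LINC01503, which super-enhancers drive in squamous carcinoma cells, read 9.83, 9.77 and 10.09 in siKDM1A cells and 9.89, 9.86 and 9.91 in control cells (difference 0.01, SE 0.10, adjusted p = 0.98). Its siKDM1A values spread around the control values. These genes, like LINC00467, LINC00963 and LINC00662, were chosen after their values were seen. A further 11 probe sets had an adjusted p from 0.05 to 0.1, 6 of them higher and 5 lower in siKDM1A cells, the nearest being LINC01116 (0.35, SE 0.09, adjusted p = 0.051).

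A few values rested on a single array. LINC00339 read 6.00 on siKDM1A c and 7.15 and 7.03 on the other siKDM1A arrays, against 6.64, 7.01 and 7.07 in control cells (difference -0.18, SE 0.27, adjusted p = 0.78). Without siKDM1A c the difference was 0.18. LINC01023 read 6.09 on siKDM1A a, 4.98 on b and 5.25 on c, against 5.17, 5.22 and 5.27 in control cells, a difference of 0.22 (SE 0.23) that was -0.10 without siKDM1A a. Neither these nor the LINC00205 probe set that rested on siKDM1A c passed the test, and their SEs were among the widest of the 251 probe sets.

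Below the level cut, limma called 4 of 833 LINC0 probe sets (0.48%), 2 higher (0.24%) and 2 lower (0.24%) in siKDM1A cells. Over all probe sets of any level the share was 5.91% (2.18% higher, 3.73% lower). Of the 3230 probe sets that passed among all 54613, 2953 were among the 29200 at the cut. Calls below the cut were thus rare among probe sets in general, and 5.91% is not a matched share for dim probe sets. LINC02551 read 3.48, 3.57 and 3.17 in siKDM1A cells and 2.07, 1.85 and 2.34 in control cells, a log2 difference of 1.32 (SE 0.15). The groups lay apart, at levels that were low in both. LINC02910 differed by 0.73 (SE 0.12), LINC00474 by -0.37 (SE 0.09) and LINC00115 by -0.51 (SE 0.11). The brighter probe sets of LINC02551 and LINC02910 did not pass the test.

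In the genome, 211 of the 212 genes could be located in RefSeq, and all 211 are annotated there as lncRNA genes. Chromosome 1 held more of them than any other chromosome (26 genes, 3 of which passed), followed by chromosome 20 with 15 genes. The nearest protein-coding genes on both sides were read as a measure that the choice of lincRNAs did not use, with the brightest probe set of each gene. Protein-coding genes that overlap a lincRNA gene were counted apart. Of these 20 genes 11 were measured, 1 was higher and 10 did not pass. Of 384 neighbours 328 were measured, and 13 were higher and 22 lower in siKDM1A cells. This is 10.7% (3.96% higher, 6.71% lower), against 9.98% of all measured protein-coding genes (3.93% higher, 6.05% lower), so the neighbours were close to the background.

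Beside the 14 genes that passed lie 28 protein-coding neighbours, of which 22 were measured, 2 were higher, 1 was lower and 19 did not pass. This is 13.6% of few genes (9.09% higher, 4.55% lower), against 9.98% of all measured protein-coding genes (3.93% higher, 6.05% lower). The 14 include LINC00326, LINC00973, LINC00899, LINC00342 and LINC01133, which are described above without a test. The neighbours were not counted without them. DCBLD2, a transmembrane receptor-like protein on the left of LINC00973, read 10.79, 10.99 and 10.86 in siKDM1A cells and 10.57, 10.49 and 10.36 in control cells (difference 0.41, SE 0.10, adjusted p = 0.040), but the call was lost without any 1 of the 6 arrays (adjusted p = 0.058 to 0.18) and by analysis of variance (0.14). A second DCBLD2 probe set was higher by 0.42 (SE 0.09, adjusted p = 0.028). Its other 2 probe sets did not pass. COL8A1, on the other side of LINC00973, was dim in both groups, at 2.72 in siKDM1A and 2.65 in control cells.

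Both neighbours of LINC02582 differed, in opposite directions. NETO1, an auxiliary subunit of glutamate receptors, read 7.05, 7.22 and 7.10 in siKDM1A cells and 6.39, 6.59 and 6.71 in control cells (difference 0.55, SE 0.10, adjusted p = 0.015), which did not pass without control a, control b or siKDM1A b (adjusted p = 0.052 to 0.054) or by analysis of variance (0.12). The other 3 probe sets of NETO1 were dimmer and did not pass, with differences from -0.10 to 0.25. FBXO15, an F-box protein gene known as a marker of mouse embryonic stem cells, read 4.88, 4.77 and 4.85 in siKDM1A cells and 5.44, 5.39 and 5.67 in control cells (difference -0.67, SE 0.10, adjusted p = 0.0048). FBXO15 passed without each of the arrays in turn and lost the call only by analysis of variance (0.077).

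LINC00326 had 1 measured neighbour, the ribosomal protein gene RPS12, with 13.34 in siKDM1A and 13.28 in control cells (difference 0.06, SE 0.08, adjusted p = 0.75). Next to LINC00665, the zinc finger gene ZNF565 had a difference of -0.52 (SE 0.15, adjusted p = 0.074), and next to LINC00205, the collagen gene COL18A1 had -0.46 (SE 0.13, adjusted p = 0.079). The neighbours of LINC01224 were also zinc finger genes, ZNF91 (-0.24, SE 0.16) and ZNF675 (-0.34, SE 0.19), and neither passed. Of the 10 lower genes 3 had a zinc finger gene (ZNF or ZFP symbol) as a neighbour, against 17 of all 211 located genes, a count made after the neighbours were seen. The 10 include LINC00899, LINC00342 and LINC01133, which are described above without a test.

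**Figure D4:**
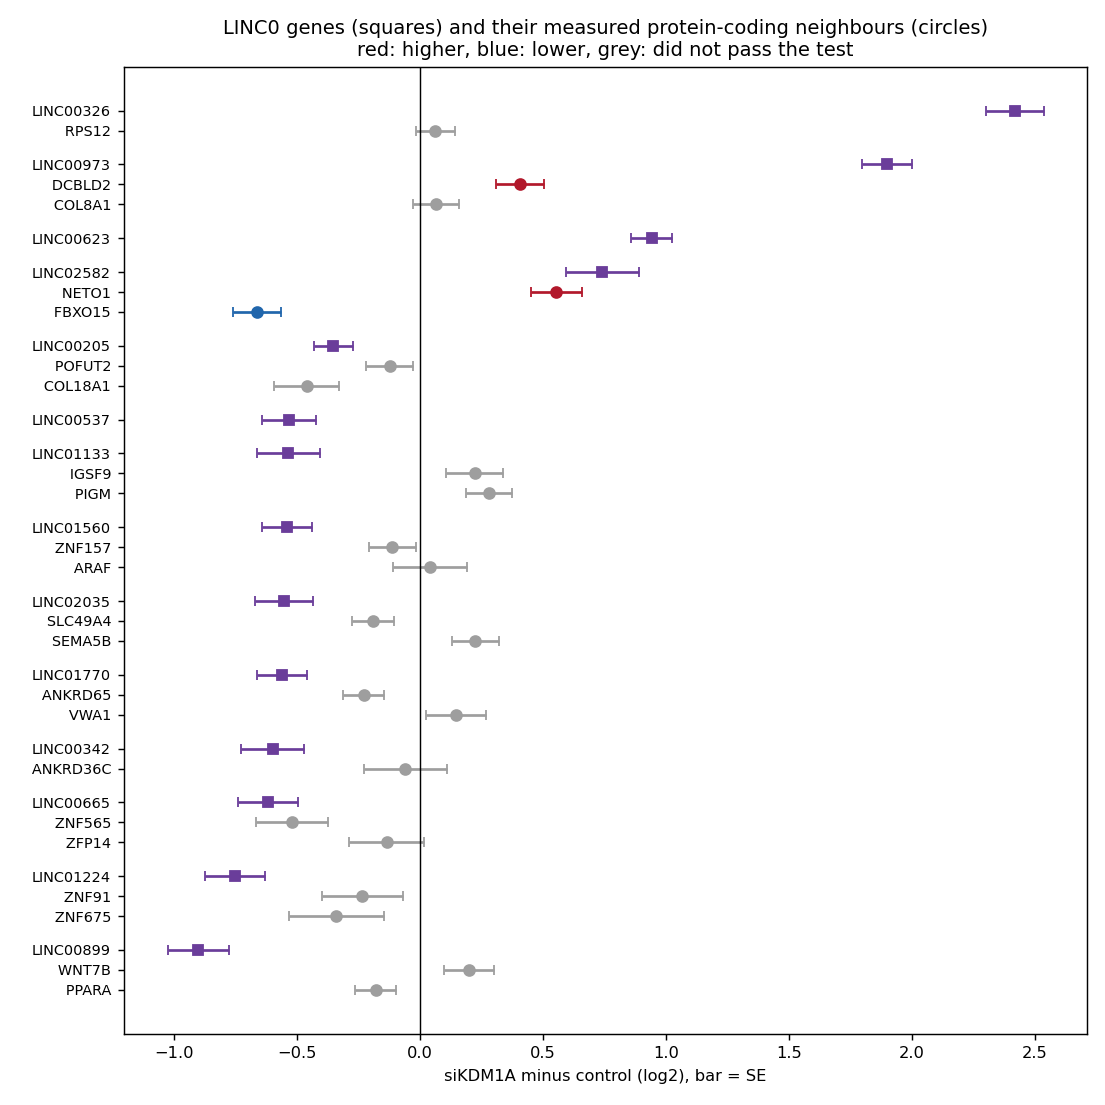
Log2 difference (siKDM1A minus control, x axis) with its SE for the 14 LINC0 genes that passed (squares) and, under each, its measured protein-coding neighbours (circles), red if higher, blue if lower and grey if not past the test. NETO1 and DCBLD2 lie right of 0 beside LINC02582 and LINC00973, and FBXO15 lies left of 0 beside LINC02582.

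Noncoding RNA genes with other names were read from 3 lists, each gene by its brightest probe set. Of 72 genes 44 were measured, 1 was higher and 2 were lower (6.82%). Of all genes read by the brightest probe set 8.92% passed (3.45% higher, 5.46% lower). Among 6 snoRNA host genes, whose introns carry small nucleolar RNAs, adjusted p-values ran from 0.19 for DANCR to 0.98 for SNHG17, and the median difference was -0.02. Among 8 microRNA host genes, MIR100HG, the host of miR-100, let-7a-2 and miR-125b-1, was higher and DLEU2, the host of miR-15a and miR-16-1, was lower. Of 30 other named lncRNA genes, NORAD, which binds Pumilio proteins, was lower.

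MIR100HG read 6.22, 6.36 and 6.49 in siKDM1A cells and 5.30, 5.25 and 4.96 in control cells. The groups lay far apart, with a difference of 1.18 (SE 0.12; 2.27-fold; adjusted p = 0.00068), and the call was lost only by analysis of variance (0.056). A second, dim probe set did not differ between groups beyond its error (-0.01, SE 0.09). DLEU2 had a difference of -0.44 (SE 0.10, adjusted p = 0.027) and passed on 2 of its 7 probe sets, both with names ending in _x_at. The second of these was dim, at 3.40 in siKDM1A and 4.13 in control cells. The other DLEU2 probe sets were also dim and did not pass, with differences from -0.28 to 0.06. The brightest probe set lost the call without each array but siKDM1A b (adjusted p = 0.066 to 0.11) and by analysis of variance (0.12). NORAD read 11.50, 11.52 and 11.63 in siKDM1A cells and 12.01, 11.98 and 11.89 in control cells (difference -0.41, SE 0.09, adjusted p = 0.024), and lost the call without each array but siKDM1A c (adjusted p = 0.065 to 0.092) and by analysis of variance (0.074). A dimmer NORAD probe set, with a name ending in _x_at, did not pass (-0.09, SE 0.24, adjusted p = 0.89). HOTAIR was dim in both groups, at 2.36 ± 0.14 in siKDM1A cells and 2.33 ± 0.22 in control cells (SD, n = 3 each; adjusted p = 0.93).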

How the data were processed

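RNA of ONS-76 cells was measured on 6 arrays, 3 siKDM1A and 3 control. Per the labels and methods, the authors made the values with RMA as run in the Partek Genomics Suite (version: not given in the sources used here). The deposited table holds log2 values of 54675 probe sets. RMA gives all arrays a common intensity distribution, so a shift shared by most genes would be largely removed. The number of arrays limits the precision.

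The log2 values were tested with limma 3.58.1 in R 4.3.3 (lmFit and eBayes), siKDM1A minus control, two-sided. P-values were adjusted by Benjamini-Hochberg over 54613 probe sets, leaving out 62 Affymetrix controls, and the threshold was 0.05. Genes were named from the platform annotation, in which 41091 probe sets have 1 gene symbol, 1801 several and 11721 none. Of the 212 genes, 210 were located in RefSeq (GRCh38.p14) by Entrez ID, 1 by symbol and 1 was not located. Apart from the level cut, the ranges of level and words such as bright, dim and high, probe set levels were not compared between genes. The genes and lists were chosen with earlier results of these data known.

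Named were LINC00326 and LINC00973, each probe set that passed with the others of its gene, those next to the level cut, neighbours of genes that passed, HOTAIR, called list genes, and values resting on 1 array. Alternatives were one-way ANOVA, leaving out each array, the replicate letter as a block, cyclic loess, median centring, a robust prior with an intensity trend, testing only brighter probe sets, other level cuts and other choices of probe sets.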

Additional observations from a re-analysis of the deposited data

How the results depend on the processing

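The 20 called probe sets of lincRNAs, neighbours and other noncoding RNA genes kept their direction under each alternative run, whereas LINC00339, LINC01023 and HOTAIR, which did not pass, changed sign without an array. The count of lincRNA probe sets, 4 higher and 10 lower, became 8 higher and 9 lower with cyclic loess, so the share of lower calls was 52.9% in place of 71.4% (75% with median centring), and 9 higher and 12 lower with only probe sets at or above the median level, a filter that also tests fewer probe sets. It became 4 higher and 1 lower by one-way ANOVA, where 25 were higher and 23 lower before adjustment. Lower calls numbered 6 with a level cut of 6 and 6 with 1 probe set per gene, both of which keep fewer probe sets. Leaving out an array gave 3 to 5 higher and 2 to 7 lower; the fewest were called without control c (3 higher, 2 lower). Over all probe sets, 1193 higher and 2037 lower became 275 and 401 by ANOVA and 609 to 1103 higher and 694 to 1563 lower without an array. Neighbours, 13 higher and 22 lower, became 5 and 5 by ANOVA, and 6 to 10 higher and 7 to 16 lower without an array. The other noncoding RNA genes, 1 higher and 2 lower, became 0 and 0 by ANOVA, 1 lower with a gene's probe sets averaged, and 1 higher and 0 to 1 lower without an array. For counts that moved by ANOVA, cyclic loess or fewer arrays the cause was not tested. Same-lettered arrays deviated with correlations of 0.11, 0.23 and -0.13. For siKDM1A a and b the same-lettered control correlated best, whereas siKDM1A c correlated best with control a (0.18). These small values do not settle whether the letters pair the arrays. With the replicate block 4 lincRNA probe sets were higher and 8 lower, 11 of them among the 14 called without it. The block ended the calls of LINC02035 (adjusted p = 0.060), LINC00205 (0.065), DCBLD2 (0.069) and NORAD (0.057), and the other noncoding RNA genes had 1 lower call. With 3 arrays per group and no detection calls, values near the level cut are the least certain.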

Other observations

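The nuclear lncRNA MALAT1 had a wide spread between the siKDM1A arrays, with 9.20 ± 0.98 in siKDM1A and 9.67 ± 0.08 in control cells (SD, n = 3 each). It read 8.12 on siKDM1A c, beside 9.44 on siKDM1A a and 10.04 on siKDM1A b. MIR210HG, the host of the hypoxia-induced miR-210, differed by -0.53 (SE 0.16, adjusted p = 0.11 by limma), and CASC15, a lncRNA of a neuroblastoma risk region, by 0.38 (SE 0.12, adjusted p = 0.11). The other CASC15 probe sets differed by 0.10, 0.04 and -0.14. CRNDE passed on its dimmer probe set (-0.36, SE 0.08, adjusted p = 0.034) and not on its brightest (-0.34, SE 0.12, adjusted p = 0.18). These genes were chosen after their values were seen.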
